A study of Drosophila melanogaster with 9 samples.

Results

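Ring glands of Drosophila melanogaster larvae starved after the nutrient restriction checkpoint (post-NRC starvation) were compared with ring glands of larvae starved before it (pre-NRC starvation). The comparison took 6 of the 9 RNA-seq libraries of the series by their labels, 3 from each starved group, and covered all genes of the deposited count table. The larvae were of the strain w1118, and each library came from a pool of many dissected glands, which the design text calls a biological replicate. The other 3 libraries came from glands of feeding larvae, whose columns are headed WT108h in the deposited table, and they enter below as a reference level and in the estimate of spread. The sources used here give neither the larvae's age nor the length of starvation for these 2 groups, so a difference in age or in time without food cannot be told apart from the side of the checkpoint.

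The ring gland is the main endocrine organ of the fly larva and joins 3 tissues. The prothoracic gland turns dietary sterol into ecdysone, the hormone whose pulses set off each moult and metamorphosis. The corpora allata make juvenile hormone, and the corpora cardiaca make adipokinetic hormone (Akh), which mobilises stored sugar and fat. In the last larval instar the checkpoint separates larvae whose development stops when food is withdrawn from larvae that go on to form a pupa without it. The comparison thus sets the gland at the time of arrest beside the gland that proceeds, as far as the series title and the labels state its purpose.

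Total counts ran from 29123939 to 36131089 in the 6 starved libraries. All 6 markers of the prothoracic gland, all 3 of the corpora allata and all 3 of the corpora cardiaca that were looked up were counted in every starved library. Replicate 3 lay away from replicates 1 and 2 in both starved groups. Along the first principal component of the 6 libraries (42.6% of the variance, log2 CPM, the counts scaled to a common library size) the pre-NRC libraries lay at −84.8, −81.3 and −18.0 and the post-NRC libraries at 65.5, 52.9 and 65.8. On the second component (25.4%) the replicate 3 libraries lay at −83.6 and −45.7 and the others between 6.4 and 66.3. Of 8662 well-counted genes, 716 differed more than 2-fold between pre-NRC replicates 1 and 2, but 2068 and 1854 between each of these and replicate 3. In post-NRC starvation the numbers were 901, 1402 and 1784. Replicate 3 libraries also had the lowest values for short genes and the highest for long genes among the starved libraries, and pre-NRC replicate 2 came next to them. Results are therefore given also with replicates 1 and 2 of each group only, feeding included. Replicate 3 alone has 1 library per group and allows no test.

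Of 14409 genes in the table, 10883 had enough counts to be tested with edgeR's quasi-likelihood test. At an adjusted p under 0.05 (Benjamini-Hochberg, two-sided), 207 genes were higher and 358 lower in post-NRC than in pre-NRC starvation, which is 1.9% and 3.29% of the genes tested, or 5.19% together. The counts of called members given below for gene lists stand beside these shares. The median log2 change was 1.28 among the higher genes and −2.25 among the lower ones, against −0.02 over all genes tested. In 564 of the 565 genes called the 3 values of one group lay wholly above the 3 of the other, with AttB as the exception. Over all genes such separate groups were found in 13.7% (higher) and 15.7% (lower). The calls were made from these same values, so the separation of called genes, here and below, is no further support for them. The lowest adjusted p was 0.00215, and 2940 genes had an unadjusted p under 0.05.

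The number of calls depended on single libraries. It was 574 without feeding replicate 3 and 1551 without pre-NRC replicate 3, but 60 and 48 without feeding replicates 1 and 2, 21 and 7 without pre-NRC replicates 1 and 2, and 6, 55 and 290 without post-NRC replicates 1, 2 and 3. With the 6 starved libraries alone 5 genes were higher and 74 lower, and with feeding replicates 1 and 2, which were unusually alike, summed into 1 library 6 were higher and 45 lower. The fit of the 6 starved libraries alone called no list member higher. Its lower calls in lists fell among P450 genes, digestive enzymes, lipases, transporters, antimicrobial peptides, sterol transport, lysosome, glycogen, TCA cycle and fat body genes. Other lists gave no call in it. With replicates 1 and 2 of each group only, 1671 genes (15.4%) were higher and 1370 (12.6%) lower. Counts of list members from that fit stand beside these shares. That fit also took feeding replicates 1 and 2 into its estimate of spread. Its adjusted p values may be too small for that reason, which was not tested. No gene called in both fits changed its direction between the main fit and any other one. Of the 105 called genes that were chosen for naming, 102 kept their call without pre-NRC replicate 3, 88 without feeding replicate 3 and 49 without post-NRC replicate 3. They numbered 13 and 10 without feeding replicates 1 and 2, 4 and 1 without pre-NRC replicates 1 and 2, and 1 and 11 without post-NRC replicates 1 and 2, with adjusted p values of at most 0.18 among those lost.

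**Figure D1:**
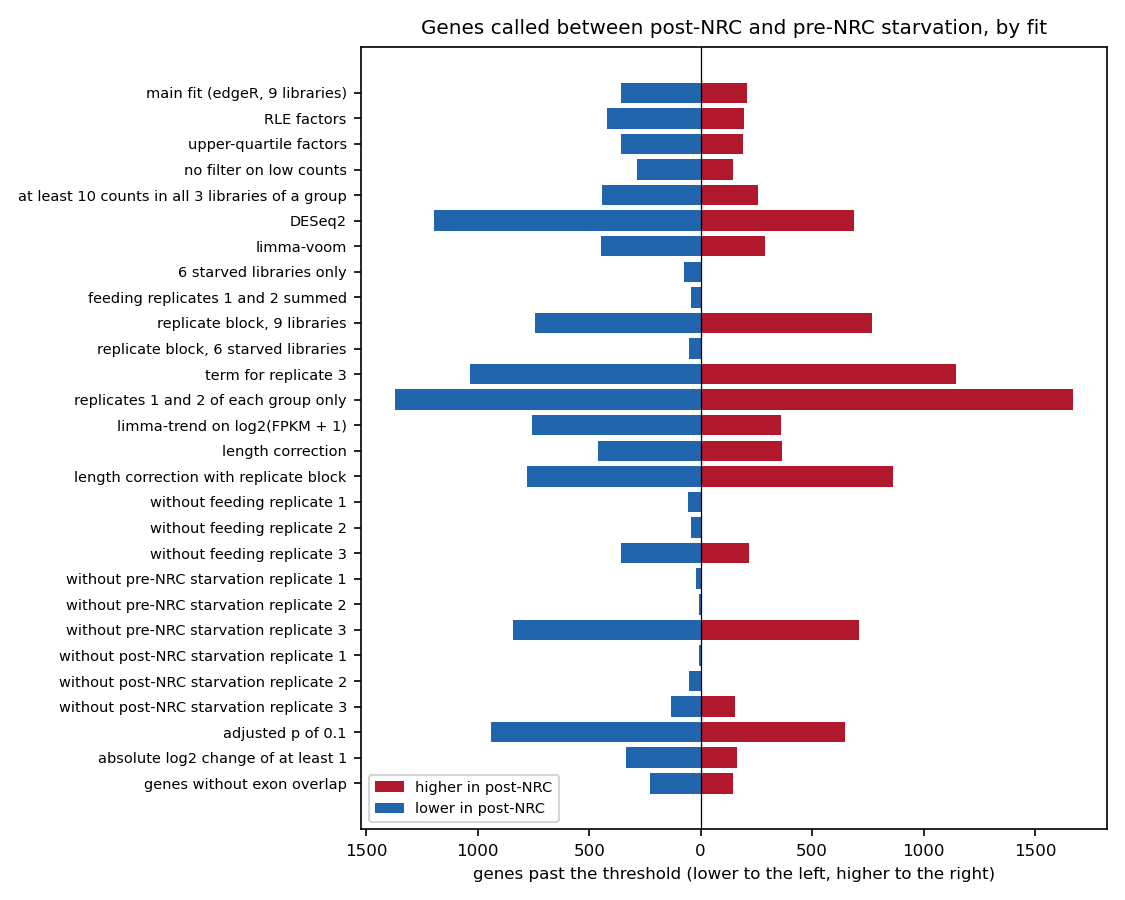
Number of genes past the threshold in each fit, with genes lower in post-NRC starvation drawn to the left (blue) and genes higher drawn to the right (red). The main fit gave 207 and 358 genes, and the fits ranged from 0 higher and 6 lower without post-NRC replicate 1 to 1671 and 1370 with replicates 1 and 2 of each group only.

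Exactly 6 genes were called in the main fit and in all 9 fits without 1 library, and all 6 were lower in post-NRC starvation. CG13135 stood at 2723, 2372 and 2645 CPM in pre-NRC replicates 1 to 3 and at 165, 277 and 245 CPM in post-NRC starvation (log2 change −3.50, SE 0.26, adjusted p = 0.00215 in edgeR, and at most 0.0167 in those fits). Its level in feeding was 0.857 to 1.09 CPM, far below either starved group, and the table's Swiss-Prot column gives the glue protein new-glue 2 as its closest match. The gene su(r), which encodes the dehydrogenase of pyrimidine breakdown, stood at 64.0, 88.6 and 54.8 CPM against 8.42, 8.51 and 8.10 CPM (log2 change −3.05, SE 0.245, adjusted p = 0.00215). CG12310 went from 811 to 886 CPM in pre-NRC starvation down to 85.1 to 121 CPM, and CG13545 from 24.0 to 32.1 CPM down to 0.764 to 1.22 CPM. The other two, CG14850 (Jig) and CG31313, lie in 1 short stretch of chromosome arm 3R that is described with the neighbouring genes. In each of the 6 genes the spread within a group was small beside the gap between the groups. That follows from how these genes were picked and is no further support for them.

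Ecdysone synthesis is the defining task of the prothoracic gland. Of its 9 genes measured, 1 was called higher (sro) and 0 lower, with a median log2 change of 1.30. With replicates 1 and 2 of each group only 7 were called higher, and with the 6 starved libraries alone 0. Values are given here for all 9 because pre-NRC replicate 3 sat apart in most of them. The dehydrogenase gene sro (shroud; FBgn0262112, 3R, exon shared with Rnb) stood at 167, 141 and 158 CPM in pre-NRC and 857, 559 and 382 CPM in post-NRC starvation (log2 change 1.95, SE 0.36, adjusted p = 0.0347). The groups of sro did not overlap, and the mean in feeding was 1296 CPM. The P450 gene phm (phantom, a hydroxylase of the pathway) stood at 3309.5, 2564 and 4913 CPM against 7422, 8469.7 and 10679.8 CPM (log2 change 1.30, SE 0.32, adjusted p = 0.0511). The groups of phm did not overlap either, and its adjusted p was 0.00689 with replicates 1 and 2 only.

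The P450 gene sad (shadow) was at 434 and 419 CPM in pre-NRC replicates 1 and 2 and at 3299.7 CPM in replicate 3, against 8955, 6539.8 and 7768 CPM in post-NRC starvation. Its log2 change was 2.49 (SE 0.75, adjusted p = 0.0811, and 0.00166 with replicates 1 and 2 only), and it shares an exon with CG6962, whose counts were called higher as well (2.74, SE 0.60, adjusted p = 0.0417). The oxygenase gene nvd (neverland), which takes the first step from cholesterol, was at 99.4, 68.6 and 427 CPM against 597, 371 and 672 CPM. In nvd pre-NRC replicate 3 lay above post-NRC replicate 2, so that the groups overlapped (1.46, SE 0.65, adjusted p = 0.189). The same held for spok (spookier), at 701, 408 and 2241 CPM against 2356, 1719 and 3084 CPM (1.10, SE 0.62, adjusted p = 0.284). For dib (disembodied) pre-NRC replicates 1 to 3 had 48.6, 54.9 and 152 CPM and post-NRC replicates 228, 162 and 289 CPM (1.41, SE 0.49, adjusted p = 0.111).

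With replicates 1 and 2 only, dib, nvd, spok and the glutathione transferase gene GstE14 (noppera-bo, which handles sterol in the gland) all passed, at adjusted p values of 0.00458, 0.00592, 0.0118 and 0.0138. GstE14 was at 179, 178 and 112 CPM against 318, 271 and 151 CPM (0.66, adjusted p = 0.269). The P450 genes Cyp6t3 (−0.55, adjusted p = 0.473) and spo (−1.22, adjusted p = 0.372) did not pass and were counted at no more than 6.96 CPM in any starved library. The sum of the 9 genes was 3840 to 11310 CPM in pre-NRC, 18100 to 23030 CPM in post-NRC and 26570 to 36680 CPM in feeding libraries. In these bulk samples a smaller share of cells of a type and less RNA per cell cannot be told apart.

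**Figure D2:**
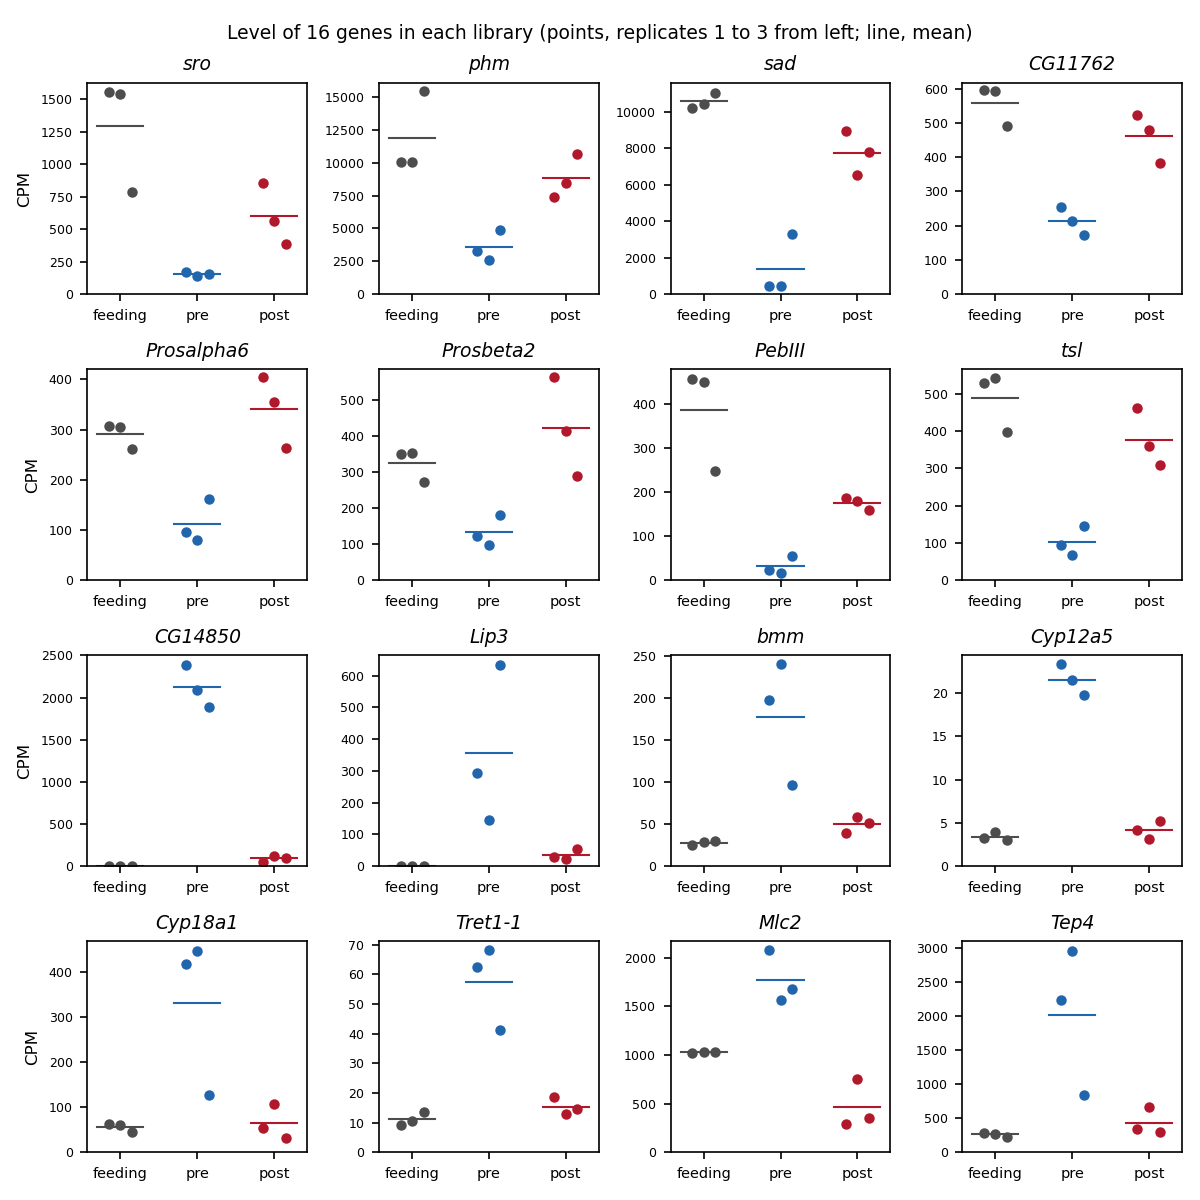
Level in CPM of 16 genes in each of the 9 libraries, with feeding in grey, pre-NRC starvation in blue and post-NRC starvation in red. Points are replicates 1 to 3 from left to right and lines are group means; sad shows pre-NRC replicate 3 at 3299.7 CPM, far above the 434 and 419 CPM of replicates 1 and 2, while Cyp12a5 and CG14850 are high in all 3 pre-NRC libraries.

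Among 17 transcription regulators of the prothoracic gland 1 was higher and 1 lower (6 and 3 with replicates 1 and 2 only). CG11762 (ouib, ouija board, a zinc finger factor that activates ecdysone synthesis) stood at 254, 213 and 172 CPM in pre-NRC and 523, 479 and 383 CPM in post-NRC starvation (log2 change 1.11, SE 0.22, adjusted p = 0.0362). The groups of CG11762 did not overlap, and the feeding mean was 559 CPM. The nuclear receptor gene ftz-f1, which acts in the gland after an ecdysone pulse, went the other way, at 92.0, 92.9 and 46.9 CPM against 24.4, 41.0 and 30.5 CPM (−1.27, SE 0.305, adjusted p = 0.0489). The call of ftz-f1 was not kept with the length correction (adjusted p = 0.122), and the gene shares an exon with a long noncoding RNA. The factors kni (1.85, adjusted p = 0.138), mld (molting defective; 0.88, adjusted p = 0.0745) and vvl (0.75, adjusted p = 0.146) did not pass, but their adjusted p values were 0.00255, 0.0342 and 0.0304 with replicates 1 and 2 only. The other members that did not pass were Hr4 (1.37), rn (1.26), nej (0.73), crol (0.33), dre4 and woc (−0.03 each), Antp (−0.19), pnt (−0.48), Mio (−0.57), sens (−0.91), D (−1.04) and Kr (−1.94).

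Of 25 genes of the ecdysone receptor and its response, 1 was lower and 0 higher (4% lower, against 3.29% of all genes). That gene was Cyp18a1, a P450 that inactivates ecdysone, at 418, 448 and 128 CPM in pre-NRC and 54.9, 108 and 31.7 CPM in post-NRC starvation (log2 change −2.35, SE 0.55, adjusted p = 0.0473, and 0.0515 with the length correction). All 3 pre-NRC values of Cyp18a1 lay above all 3 post-NRC values, of which the mean was close to the 55.8 CPM of feeding. The early gene br (broad), a transcription factor needed for metamorphosis, was at 25.5 and 22.2 CPM in pre-NRC replicates 1 and 2 but at 555 CPM in replicate 3, against 719, 484 and 1102 CPM in post-NRC starvation. Because replicate 3 lay within the post-NRC range, the log2 change of br was 1.94 with an SE of 1.19 (adjusted p = 0.327), and 0.00166 was its adjusted p with replicates 1 and 2 only. In that fit 9 genes of the list were higher and 4 lower, beside 15.4% higher and 12.6% lower over all genes. Eip63E, an ecdysone-induced kinase gene, showed the same layout, with 39.3, 40.2 and 169 CPM against 171, 125 and 239 CPM (1.10, adjusted p = 0.243).

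Genes of sterol and lipoprotein transport, which bring the substrate of ecdysone to the gland, gave 1 lower call among 25 (4%, against 3.29% of all genes). That gene was Apoltp, of a lipid transfer particle. It stood at 61.9, 55.7 and 40.1 CPM in pre-NRC and 6.22, 2.78 and 5.50 CPM in post-NRC starvation (−3.44, SE 0.64, adjusted p = 0.0353). The sterol transfer gene Start1 did not pass in the main fit (2.19, SE 0.675, adjusted p = 0.0854, exon shared with SIFa) and had 221, 165 and 1212 CPM against 2303, 2199.9 and 2768 CPM. Its adjusted p was 0.00166 with replicates 1 and 2 only, and that of Npc1a, which moves sterol out of lysosomes, was 0.00488 (0.338 in the main fit). The median of the list was −0.82 and was close to 0, at 0.01, without pre-NRC replicate 3.

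In the corpora cardiaca 2 of 13 genes were lower and 0 higher. The prohormone convertase gene amon (amontillado), whose product cuts Akh out of its precursor, stood at 127, 115 and 111 CPM in pre-NRC and 58.0, 64.3 and 65.8 CPM in post-NRC starvation (−0.91, SE 0.17, adjusted p = 0.0353). CG8317 (Lst, limostatin, a peptide that limits insulin release) had 390, 392 and 188 CPM against 77.8, 134 and 108 CPM (−1.60, SE 0.32, adjusted p = 0.0362). Neither gene's groups overlapped. Akh itself was at 11119.6, 17478 and 8439 CPM against 8972, 4516 and 8844 CPM, with overlapping groups (−0.73, SE 0.50, adjusted p = 0.379). Pal2, which encodes an enzyme of peptide amidation (−1.06, adjusted p = 0.059) and the peptide receptor gene sNPF-R (−1.29, adjusted p = 0.0939) did not pass. The allatostatin C receptor gene AstC-R1 lay the other way, at 2.89, 1.69 and 38.1 CPM against 39.8, 44.6 and 89.7 CPM (2.03, SE 1.06, adjusted p = 0.255, and 0.00255 with replicates 1 and 2 only). In that fit 2 genes of the list were higher (AstC-R1 and Pal1, which is at 0.51 in the main fit) and 5 lower. Over all genes that fit called 15.4% higher and 12.6% lower. The other members that did not pass were dimm (−0.98), 7B2 (−0.75), svr (−0.72), AstA-R2 (−0.25), gl (0.16) and the amidating enzyme gene Phm (adjusted p = 0.396). The sum of Akh, amon and CG8317 was 8738 to 17990 CPM in pre-NRC, 4714 to 9108 CPM in post-NRC and 1534 to 4845 CPM in feeding libraries.

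For juvenile hormone, 1 of 12 genes was lower and 0 higher, and with replicates 1 and 2 only 6 were lower. The called gene was the hormone receptor gce (germ cell-expressed), at 66.0, 110 and 63.2 CPM in pre-NRC and 24.1, 36.2 and 33.5 CPM in post-NRC starvation (−1.35, SE 0.285, adjusted p = 0.0378, and 0.0603 with the length correction). It shares exons with antisense RNAs. The methyltransferase gene jhamt, which makes the hormone in the corpora allata, did not pass (−0.55, SE 0.23, adjusted p = 0.167), nor did the receptor Met (−0.81, adjusted p = 0.265) or the hydrolases Jheh1 (0.02, adjusted p = 0.968), Jheh2 (0.12, adjusted p = 0.784) and Jheh3 (−0.26, adjusted p = 0.764). The other members that did not pass were Aldh-III (−0.87), qm (−0.67), Fpps (−0.41), Hmgs (adjusted p = 0.243), CG5919 (−0.20) and the hormone target Kr-h1 (0.24).

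The proteasome, which breaks down ubiquitin-tagged proteins, held the highest share of higher genes among the lists described. Of 48 members listed 36 were tested, and the 12 left out were low-count paralogs. Of the 36, 21 were higher and 0 lower (34 and 0 with replicates 1 and 2 only, and 12 and 0 with the length correction), against 1.9% of all genes, with a median log2 change of 1.25. With the 6 starved libraries alone 0 of the 36 were higher and 0 lower. All 8 alpha subunits of the core particle that were tested were called, as were 7 of 8 beta subunits. In the regulatory particle 1 of 8 ATPase subunits and 5 of 12 other subunits were called, with medians of 1.2 and 1.16 that were near those of the core (1.54 and 1.33). With replicates 1 and 2 only, 7 of 8 and 12 of 12 of these regulatory subunits were called.

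Prosalpha6 stood at 95.5, 79.0 and 161 CPM in pre-NRC and 404, 354 and 263 CPM in post-NRC starvation (1.60, SE 0.30, adjusted p = 0.0347). Prosbeta2 had 124, 98.7 and 181 CPM against 564, 415 and 288 CPM (1.65, SE 0.315, adjusted p = 0.0353, exon shared with Reck). In both genes pre-NRC replicate 3 was the highest of its group and post-NRC replicate 3 the lowest, and the groups did not overlap. The ATPase gene Rpt3 (1.26, SE 0.28, adjusted p = 0.0439, and 0.0584 with the length correction) and Rpn9 of the lid (1.46, SE 0.32, adjusted p = 0.0417, exon shared with CG10365) followed. CG30382 (Prosalpha1R, 1.75, SE 0.30, adjusted p = 0.0307) is a close copy of Prosalpha1, so reads may have been split between them. Summed over the list, the proteasome took 2791 to 5422 CPM in pre-NRC, 7703 to 10110 CPM in post-NRC and 8593 to 8818 CPM in feeding libraries.

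**Figure D3:**
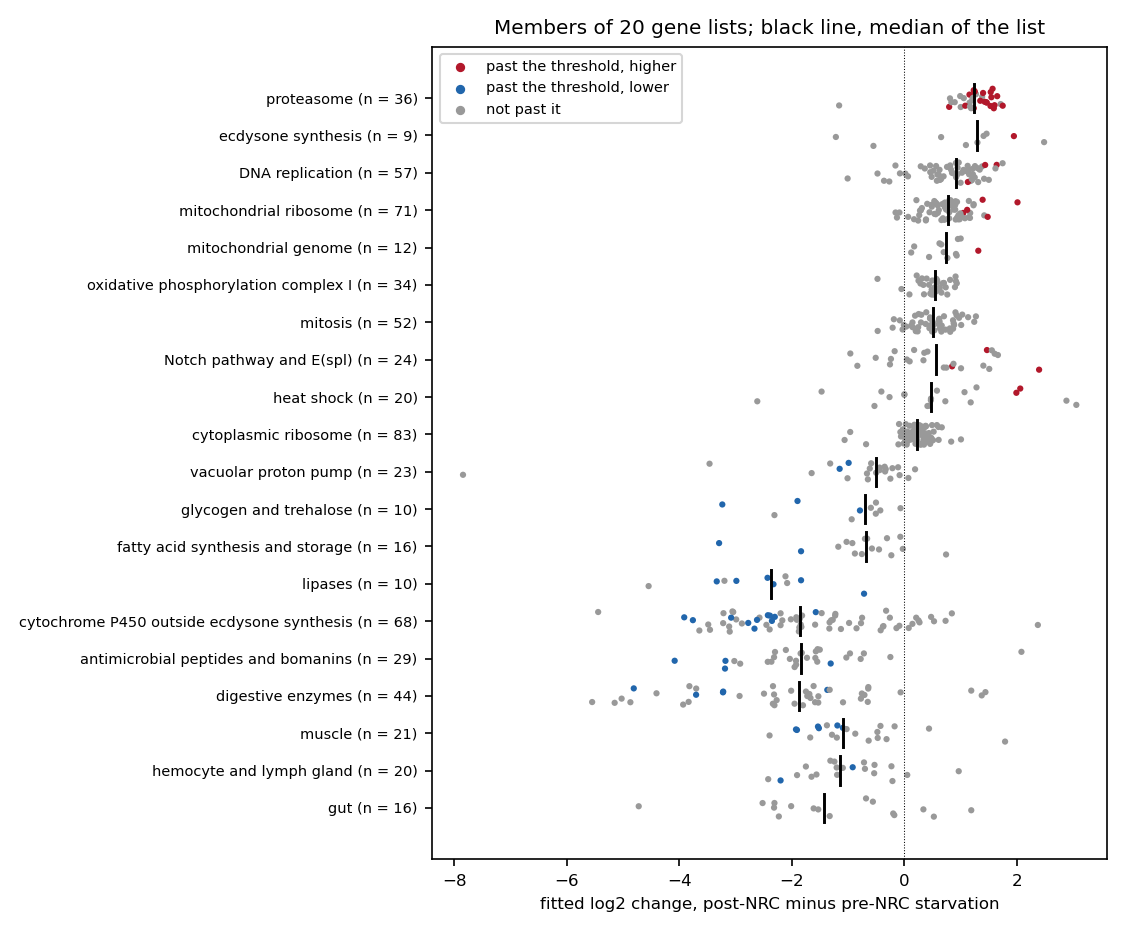
Fitted log2 change of each tested member of 20 gene lists, with genes past the threshold in red (higher in post-NRC) or blue (lower), others in grey, and the median of each list as a black line. Medians lie between 0.2 and 1.3 from the proteasome (1.25) to the cytoplasmic ribosome (0.23), and below 0 from the vacuolar proton pump (−0.50) to the gut markers (−1.43), with the lipases lowest (−2.38).

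Mitochondrial genes gave few calls. Of 71 genes of the mitochondrial ribosome 5 were higher and 0 lower (median 0.77), with 48 and 0 called with replicates 1 and 2 only and 20 and 0 with the length correction. The calls were 4 of 45 in the large subunit and 1 of 26 in the small one. The large-subunit gene mRpL11 stood at 16.1, 15.1 and 23.8 CPM in pre-NRC and 56.4, 45.6 and 42.3 CPM in post-NRC starvation (1.39, SE 0.23, adjusted p = 0.0304, exon shared with CG8461). The small-subunit gene mRpS18A had 10.6, 8.78 and 9.09 CPM against 29.6, 33.3 and 16.8 CPM (1.48, SE 0.28, adjusted p = 0.0353). Post-NRC replicate 3 was again the lowest of its group, and the summed list in it (1704 CPM) lay within the pre-NRC range of 1375 to 1979 CPM, against 3203 CPM at the highest.

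None of the 3 lists of nuclear genes of oxidative phosphorylation gave a call in the main edgeR fit. At an unadjusted p under 0.05, 12.1% of all genes tested were higher and 14.9% lower, beside which the counts at an unadjusted p are given here and in other lists. Of 34 genes of complex I 0 passed (5 higher at an unadjusted p under 0.05; DESeq2 and limma-voom called 0; median 0.55), and 19 were higher with replicates 1 and 2 only. Of 26 genes of complexes II to IV 0 passed in edgeR (4 higher at an unadjusted p under 0.05; DESeq2 and limma-voom called 0; median 0.57), and 13 were higher with replicates 1 and 2 only. For the ATP synthase 0 of 14 passed in edgeR (3 higher and 1 lower at an unadjusted p under 0.05; DESeq2 called 1 and limma-voom 0; median 0.61), against 9 with replicates 1 and 2 only. Its proton ring gene CG1746 (ATPsynC) had 529, 437 and 554 CPM against 1118, 869 and 638 CPM (0.79, SE 0.30, adjusted p = 0.135). Import and chaperone genes gave 0 of 13 in edgeR and limma-voom, 8 at an unadjusted p and 3 in DESeq2 (median 0.58), with the chaperonin gene Hsp60 at 0.64 (adjusted p = 0.128).

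The mitochondrial genome itself took 5.21% to 6.26% of the counts in post-NRC libraries, all above the 2.85% to 4.46% of pre-NRC and the 3.86% to 4.51% of feeding libraries. Of its 12 tested genes 1 was higher (8.33%, against 1.9% of all genes, and 0 with the 6 starved libraries alone). That gene, mt:ND2 of complex I, was at 267, 187 and 196 CPM against 397, 562 and 659 CPM (1.32, SE 0.30, adjusted p = 0.0439, and 0.0845 with the length correction). The cytochrome b gene mt:Cyt-b was at 6608, 6007 and 6619.5 CPM against 10652, 11062 and 11009 CPM (0.77, SE 0.19, adjusted p = 0.0517), with groups that did not overlap.

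Of 23 genes of mitochondrial dynamics and mitophagy 1 was lower and 0 higher (4.35% lower, against 3.29% of all genes). That gene was Marf, the mitofusin that joins outer membranes, at 259, 304 and 242 CPM in pre-NRC and 127, 138 and 126 CPM in post-NRC starvation (−1.04, SE 0.17, adjusted p = 0.0291). Its groups were well apart, the post-NRC values were near the feeding mean of 136 CPM, and it shares an exon with a long noncoding RNA. The fission gene Drp1 (0.24, adjusted p = 0.429), the inner membrane fusion gene Opa1 (−0.16, adjusted p = 0.639) and the channel gene porin (1.07, SE 0.31, adjusted p = 0.0746) did not pass. Drp1 and Opa1 fall outside the naming rule and were chosen for their part in the same process after their values were seen.

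In redox defence 3 of 22 genes were higher and 1 lower (0 and 0 with the 6 starved libraries alone). The mitochondrial peroxiredoxin Prx3 stood at 37.4, 45.4 and 40.6 CPM in pre-NRC and 103, 101 and 64.1 CPM in post-NRC starvation (1.12, SE 0.24, adjusted p = 0.038). Prx5 (1.49, SE 0.285, adjusted p = 0.0353, exon shared with CG7215) and the cytosolic superoxide dismutase Sod (1.11, SE 0.26, adjusted p = 0.0472) were higher as well, whereas Prx2540-2 was lower (−2.61, SE 0.61, adjusted p = 0.0467). Of 22 heme and iron genes 2 enzymes of heme synthesis were higher and 0 genes lower (0 and 0 with the 6 starved libraries alone). They were Updo (Urod, 1.27, SE 0.255, adjusted p = 0.0372, exon shared with CG12929) and Coprox (0.81, SE 0.185, adjusted p = 0.0439, and 0.0555 with the length correction). Heme is the cofactor of the ecdysone P450 enzymes.

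Genes of DNA replication were called higher in 3 of 57 cases and lower in 0 (median 0.92), against 40 and 0 with replicates 1 and 2 only and 8 and 0 with the length correction. With the 6 starved libraries alone the counts were 0 and 0. DNApol-alpha73, a subunit of the priming polymerase, stood at 3.62, 4.14 and 9.64 CPM in pre-NRC and 20.3, 18.4 and 15.7 CPM in post-NRC starvation (1.64, SE 0.39, adjusted p = 0.049). Sld5 of the replicative helicase complex (1.44, SE 0.33, adjusted p = 0.0439) and the nucleotide-cleaning dUTPase (1.13, SE 0.26, adjusted p = 0.0463, exon shared with an antisense RNA) also passed. Of 52 mitosis and endocycle genes 0 passed in edgeR, with 19 higher at an unadjusted p under 0.05, 8 in DESeq2 and 1 in limma-voom (median 0.52). With replicates 1 and 2 only 23 of the 52 were higher. The phosphatase gene stg (string), which starts mitosis, had 39.0, 32.4 and 60.1 CPM against 99.1, 83.5 and 82.6 CPM (1.01, SE 0.25, adjusted p = 0.0532). Prothoracic gland cells replicate their genome without dividing, and both lists hold genes used in that endocycle.

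**Figure D4:**
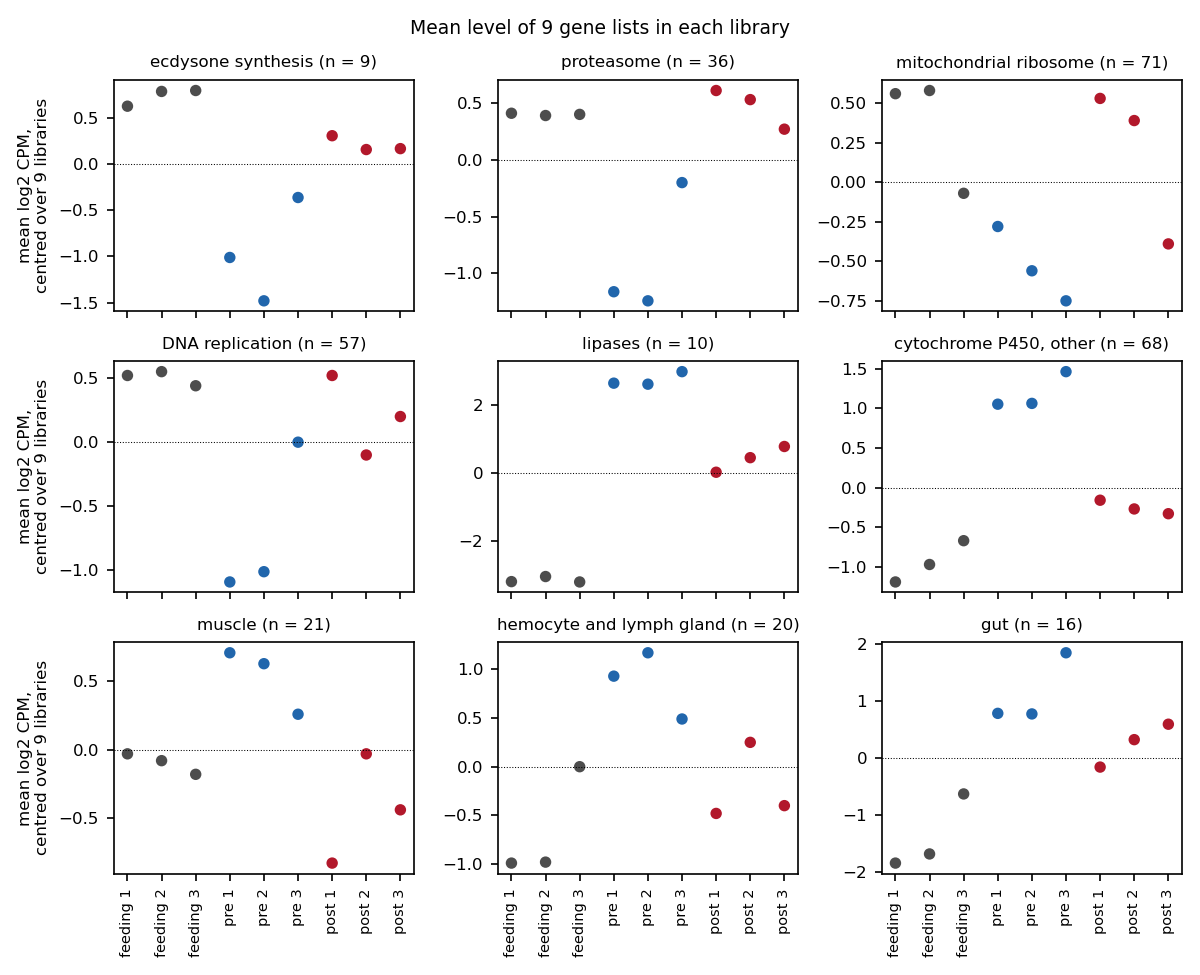
Mean log2 CPM of the tested members of 9 gene lists in each library, centred on the mean over the 9 libraries (feeding grey, pre-NRC blue, post-NRC red). For ecdysone synthesis, the proteasome and DNA replication replicate 3 is the pre-NRC library nearest to the post-NRC ones, whereas for the lipases and the other P450 genes all 3 pre-NRC libraries lie well above the post-NRC ones.

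Protein folding genes gave 2 higher calls among 20 heat shock genes, both small chaperones, and 0 with the 6 starved libraries alone. Hsp26 stood at 172, 232 and 389 CPM in pre-NRC and 1105, 1165 and 886 CPM in post-NRC starvation (1.99, SE 0.44, adjusted p = 0.0429), and Hsp23 at 107, 148 and 397 CPM against 835, 917 and 975 CPM (2.06, SE 0.44, adjusted p = 0.0389, and 0.0713 with the length correction). FKBP59, a peptidyl-prolyl isomerase, was higher too, with 225, 223 and 448 CPM against 1644, 1080 and 728 CPM (1.95, SE 0.39, adjusted p = 0.0362, exon shared with CG34183). Of 24 genes of folding in the endoplasmic reticulum 0 passed in edgeR and limma-voom (8 at an unadjusted p, 4 in DESeq2; median 0.51), and 13 were higher with replicates 1 and 2 only. The disulfide isomerase gene ERp60 stood at 0.93 (adjusted p = 0.076, and 0.01 with replicates 1 and 2 only), and the calreticulin gene Crc at 0.72 (adjusted p = 0.0649, and 0.0139). Genes of the cytoplasmic ribosome gave 0 of 83 in edgeR and limma-voom (3 at an unadjusted p, 1 in DESeq2), with a median of 0.23, and RpL3 stood at 0.32 (adjusted p = 0.542). For aminoacyl-tRNA synthesis 0 of 33 passed in edgeR and limma-voom (5 higher and 1 lower at an unadjusted p, 1 in DESeq2; median 0.22).

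In the Notch pathway 3 of 24 genes were higher and 0 lower (8 higher with replicates 1 and 2 only, 1 with the length correction, and 0 with the 6 starved libraries alone). The ligand gene Dl (Delta) stood at 6.63, 5.74 and 12.4 CPM in pre-NRC and 25.6, 23.8 and 19.2 CPM in post-NRC starvation (1.47, SE 0.35, adjusted p = 0.0484). The target E(spl)malpha-BFM had 3.71, 3.44 and 10.9 CPM against 34.6, 34.6 and 25.8 CPM (2.40, SE 0.50, adjusted p = 0.0378, and 0.0618 with the length correction), and Psn, the protease that releases the Notch fragment, was higher by 0.85 (SE 0.20, adjusted p = 0.0458). Of the 24 genes tested, 6 had post-NRC values wholly above the pre-NRC ones, beside 13.7% of all genes, and 6 had a negative log2 change. The 3 called genes were among those with separate groups. Other named rises were tsl (torso-like, a secreted partner of Torso signalling), at 94.7, 68.1 and 145 CPM against 461, 360 and 308 CPM (1.87, SE 0.31, adjusted p = 0.0304), and the clock factor cyc (cycle), at 22.0, 20.8 and 32.8 CPM against 72.8, 66.2 and 66.1 CPM (1.44, SE 0.21, adjusted p = 0.0217). In the clock list of 11 genes cyc was the 1 higher call and the kinase gene sgg (shaggy) the 1 lower one (−1.63, SE 0.375, adjusted p = 0.0453).

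Among the 15 largest rises that could be named, the cuticle protein gene Cpr51A stood at 1.78, 1.38 and 4.78 CPM in pre-NRC and 15.2, 15.9 and 20.4 CPM in post-NRC starvation (2.69, SE 0.46, adjusted p = 0.0304). PebIII (EbpIII), a secreted protein named from the ejaculatory bulb, had 22.4, 17.3 and 54.3 CPM against 187, 180 and 160 CPM (2.48, SE 0.445, adjusted p = 0.0318). Further ones were ppk22 of a sodium channel family (2.35), mRpL18 (2.01), GILT2 (1.99), obst-B of chitin binding (1.88), Tsp42Ek of the tetraspanins (1.85) and icln (1.82, SE 0.25, adjusted p = 0.0196). Of these, mRpL18, Tsp42Ek and icln share an exon with another gene, and the calls of mRpL18 and GILT2 were not kept with the length correction (adjusted p = 0.0518 and 0.0515).

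Lipases were lower in post-NRC starvation. Of 18 listed genes 10 were tested, and of these 6 were lower and 0 higher, against 3.29% of all genes, with a median log2 change of −2.38. With replicates 1 and 2 only 7 were lower, and with the 6 starved libraries alone 1. Lip4, an acid lipase gene, stood at 27.1, 20.1 and 33.8 CPM in pre-NRC and 4.58, 5.13 and 5.32 CPM in post-NRC starvation (−2.43, SE 0.35, adjusted p = 0.0217). Lip3 had 294, 146 and 632 CPM against 29.5, 23.1 and 53.8 CPM (−3.33, SE 0.57, adjusted p = 0.0309, exon shared with CheA87a), and its feeding mean was 0.215 CPM. The triglyceride lipase gene bmm (brummer), a homologue of the mammalian adipose lipase, had 198, 240 and 96.0 CPM against 39.6, 58.2 and 51.8 CPM (−1.83, SE 0.33, adjusted p = 0.0315). CG6283 (−2.98, SE 0.54), mag (−2.33, SE 0.51, adjusted p = 0.0419) and the hormone-sensitive lipase gene Hsl (−0.71, SE 0.17, adjusted p = 0.0489, and 0.0899 with the length correction) were lower as well. In each of the 6 the starved groups did not overlap, and the post-NRC values lay nearer to feeding. Of 16 genes of fatty acid synthesis and storage 2 were lower and 0 higher, bmm and the acyl-CoA synthetase gene CG12512 (Acsf2, −3.29, SE 0.69, adjusted p = 0.0378). Fatty acid oxidation gave 0 of 17 in edgeR and limma-voom, with 2 lower at an unadjusted p and 2 in DESeq2.

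Genes of sugar storage and transport were lower where they passed in the main fit. Of 10 genes of glycogen and trehalose 3 were lower and 0 higher (median −0.69), and 5 and 0 with replicates 1 and 2 only. The trehalose transporter gene Tret1-1 stood at 62.4, 68.2 and 41.3 CPM in pre-NRC and 18.6, 13.0 and 14.5 CPM in post-NRC starvation (−1.90, SE 0.27, adjusted p = 0.0196). The trehalose synthase gene Tps1 had 33.9, 24.9 and 153 CPM against 7.55, 9.54 and 5.41 CPM (−3.23, SE 0.78, adjusted p = 0.0489), and the glycogen phosphorylase gene GlyP was lower by a smaller amount (−0.79, SE 0.18, adjusted p = 0.0439, and 0.0625 with the length correction). Of 15 glycolysis genes 2 were lower, Ald (−1.08, SE 0.20, adjusted p = 0.0329) and the glycerophosphate oxidase gene Gpo-1 (−1.42, SE 0.20, adjusted p = 0.0196). With replicates 1 and 2 only, 4 glycolysis genes were higher and 5 lower (median −0.04), and 4 genes of the TCA cycle were higher and 6 lower (median −0.14). Of 20 genes of the TCA cycle and its side reactions 2 were lower, the citrate synthase gene kdn (knockdown) and the malic enzyme gene Men. Men was at 191, 216 and 200 CPM against 58.9, 87.3 and 63.7 CPM (−1.53, SE 0.20, adjusted p = 0.0162), and kdn at 189, 201 and 145 CPM against 72.9, 66.5 and 61.2 CPM (−1.42, SE 0.185, adjusted p = 0.0182). Among 18 amino acid and sugar transporters 3 were lower, Tret1-1, the amino acid transporter gene NAAT1 (−2.82, SE 0.54) and the citrate transporter gene Indy (−0.97, SE 0.23), against 6 lower and 1 higher with replicates 1 and 2 only.

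The nutrient-sensing list gave 2 lower calls among 30 and 0 higher. The factor foxo, which is active when insulin signalling is low, stood at 114, 144 and 98.5 CPM in pre-NRC and 39.9, 53.6 and 47.1 CPM in post-NRC starvation (−1.34, SE 0.26, adjusted p = 0.0353), with a feeding mean of 41.0 CPM. SNF4Agamma, a subunit of the AMP-activated kinase, had 393, 469 and 210 CPM against 94.3, 158 and 99.3 CPM (−1.61, SE 0.335, adjusted p = 0.0378, and 0.107 with the length correction). Autophagy gave 0 of 19 in edgeR and limma-voom (6 lower at an unadjusted p, 4 in DESeq2; median −0.43), with Atg8a at −0.62 (adjusted p = 0.0888). Of 23 subunits of the vacuolar proton pump 2 were lower and 0 higher, Vha100-2 (−1.15, SE 0.19, adjusted p = 0.0304) and Vha44 (−0.99, SE 0.18, adjusted p = 0.0318). The 1 call among 19 apoptosis genes (5.26%, against 3.29% lower of all genes) was puc, the phosphatase that limits the Jun kinase (−0.78, SE 0.17, adjusted p = 0.0429). Of 20 lysosome genes 1 was higher (Hexo1, a hexosaminidase, 0.83, SE 0.16) and 1 lower (Lip4, given above). Each is 5% of the list, against 1.9% higher and 3.29% lower of all genes.

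Cytochrome P450 genes outside ecdysone synthesis, many of which handle foreign compounds and lipids, gave 11 lower and 0 higher calls among 68 (median −1.85). With replicates 1 and 2 only 19 were lower and 3 higher, and with the 6 starved libraries alone 4 and 0. By family the lower calls numbered 6 of 21 in Cyp6, 2 of 20 in Cyp4, and 1 each of 7 in Cyp12, 4 in Cyp9 and 4 in Cyp28. In Cyp6 the called genes Cyp6a9 and Cyp6a19 share an exon. Cyp12a5, a mitochondrial P450, stood at 23.3, 21.5 and 19.7 CPM in pre-NRC and 4.16, 3.20 and 5.25 CPM in post-NRC starvation (−2.35, SE 0.28, adjusted p = 0.014), with little spread in either group. Cyp4e3 had 21.2, 24.6 and 18.9 CPM against 1.61, 0.748 and 2.41 CPM (−3.76, SE 0.56, adjusted p = 0.0229). Of 49 glutathione and glycosyl transferase genes 1 was lower (2.04%, against 3.29% of all genes), Ugt35a (−1.70, SE 0.34, adjusted p = 0.0362).

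Immune genes were lower where they passed. Of 29 antimicrobial peptide and bomanin genes 4 were lower and 0 higher (median −1.84, 13 lower and 1 higher with replicates 1 and 2 only). CG16712 (IM33) stood at 86.7, 64.3 and 71.6 CPM in pre-NRC and 10.7, 5.55 and 8.22 CPM in post-NRC starvation (−3.19, SE 0.63, adjusted p = 0.0362). AttB, an attacin gene, was at 43.9 and 56.1 CPM in pre-NRC replicates 1 and 2 but at 6.33 CPM in replicate 3, below the 6.55 CPM of post-NRC replicate 2 (−3.18, SE 0.76, adjusted p = 0.0489). The antifungal peptide gene Drs (−1.31, SE 0.30, adjusted p = 0.046) lost its call in all 9 fits without 1 library. Among 16 genes of microbe recognition 1 was lower (6.25%, against 3.29% of all genes). That gene was PGRP-LC, the receptor that senses bacterial peptidoglycan (−1.70, SE 0.35, adjusted p = 0.0377).

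Chitin genes went both ways, with 1 higher and 6 lower among 27. The chitinase genes Cht4 (4.37, 148 and 33.0 CPM against 0.908, 0.427 and 1.07 CPM; −6.26, SE 1.16, adjusted p = 0.0347) and Cht9 (−5.97, SE 1.39, adjusted p = 0.0461) had the largest named falls and a wide spread in pre-NRC starvation. The deacetylase gene Cda4 was higher (24.1, 20.3 and 31.0 CPM against 47.0, 67.9 and 72.2 CPM; 1.31, SE 0.23, adjusted p = 0.031), whereas Cda9 was lower (−2.77, SE 0.48, adjusted p = 0.0309). Among 78 cuticle protein genes 2 were higher (2.56%, against 1.9% of all genes) and 1 lower (1.28%, against 3.29%). Replicates 1 and 2 only gave 7 higher and 18 lower. The lower gene of the main fit was obst-F (−3.25, SE 0.51, adjusted p = 0.0281). Digestive enzymes gave 5 lower and 0 higher calls among 44 (median −1.88). The serine protease gene Jon25Biii stood at 88.4, 382 and 473 CPM in pre-NRC and 9.43, 7.69 and 16.5 CPM in post-NRC starvation (−4.81, SE 0.675, adjusted p = 0.0196), and the maltase gene Mal-A3 at 14.5, 51.5 and 53.8 CPM against 2.76, 3.70 and 2.75 CPM (−3.70, SE 0.68, adjusted p = 0.0343).

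Markers of other tissues did not all move the same way, with list medians from −1.43 (gut) to 0.73 (trachea). Their part in any result was not tested. Of 21 tested muscle markers 6 were lower and 0 higher (median −1.09, 12 lower with replicates 1 and 2 only, and 0 with the 6 starved libraries alone). The myosin light chain gene Mlc2 stood at 2078, 1568 and 1674 CPM in pre-NRC and 293, 757 and 351 CPM in post-NRC starvation (−1.93, SE 0.36, adjusted p = 0.0347). Mlc1 (−1.91), Act57B (−1.52), up (−1.53), Mlp84B (−1.19) and Tm1 (−1.09) were lower as well, the last 2 without a call under the length correction (adjusted p = 0.0517 and 0.0526). The muscle list summed to 10640 to 16070 CPM in pre-NRC, 3789 to 6938 CPM in post-NRC and 8077 to 8432 CPM in feeding libraries. Of 20 hemocyte and lymph gland markers 2 were lower, Tep4 and dome (0 with the 6 starved libraries alone). The edgeR call of dome was not kept with the length correction (adjusted p = 0.0521). The list summed to 4836 to 9772 CPM in pre-NRC against 1971 to 3667 CPM in post-NRC starvation. Tep4, a marker of lymph gland progenitors, had 2239, 2966 and 844 CPM against 351, 671 and 296 CPM (−2.20, SE 0.48, adjusted p = 0.0416, and 0.0536 with the length correction). These 2 lists were separate between the starved groups in their sums.

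Of 16 gut markers 0 passed in edgeR and limma-voom (5 lower at an unadjusted p, 5 in DESeq2, median −1.43). Their sum was 2174 to 14220 CPM in pre-NRC against 1367 to 4855 CPM in post-NRC starvation, so that the groups overlapped. The sums of the digestive enzymes overlapped too, at 4579 to 23330 CPM against 2121 to 8436 CPM. In both lists pre-NRC replicate 3 and post-NRC replicate 2 had the highest sum of their group. Fat body markers, which bear on the lipases and immune genes, had 1 lower call among 18 (Apoltp) and sums of 2700 to 4293 CPM against 2241 to 3507 CPM. Neuron markers gave 0 of 16 in edgeR and limma-voom (3 lower at an unadjusted p, 2 in DESeq2) with sums of 858.7 to 1043 CPM against 603.7 to 669.1 CPM, beside the lower corpora cardiaca genes. Salivary gland markers had 2 lower calls among 14, eyg and the glue gene ng2 (204, 214 and 480 CPM against 48.2, 47.2 and 18.1 CPM; −2.98, SE 0.67, adjusted p = 0.0439), and sums of 1216 to 2394 CPM against 289.8 to 3016 CPM. Of 9 tracheal, 10 glial, 10 epidermal and 9 germ line markers 0 passed in edgeR and limma-voom, and of 17 disc markers 1 was lower (eyg). At an unadjusted p 1 tracheal marker was higher, and 3 glial, 1 epidermal and 0 germ line markers were lower; in DESeq2 the counts were 0, 3, 1 and 0. No tested marker of any of these lists was at 0 in all 6 starved libraries.

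Other named falls came from genes of several kinds. The neuropeptide-like gene Nplp4 stood at 4720, 2866 and 534 CPM in pre-NRC and 322, 423 and 105 CPM in post-NRC starvation (−3.26, SE 0.76, adjusted p = 0.0468), the 1 call among 30 neuropeptide and receptor genes. For Nplp4 replicate 3 was the lowest library of both groups. The 1 call among these 30 genes is 3.33%, near the 3.29% lower among all genes. Of 30 genes of ribosome production 1 was lower, Nop17l (−1.09, SE 0.23), and of 22 receptors and kinases of the gland 1 was lower, dome. These are 3.33% and 4.55%, near the 3.29% of all genes. The lectin gene lectin-37Da (−4.71), the testis gene Mst98Ca (−4.58), CG5278 (sit, a fatty acid elongase, −4.47), Hf (−3.95), Cyt-b5-r (−3.79) and CG5150 (Alp9, an alkaline phosphatase, −3.87) were among the 15 largest falls, all below 50 CPM in every library.

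Some of the lower genes sat side by side in the genome. Of 349 lower genes with a position in the annotation (build BDGP6), 65 (18.6%) lay next to another lower gene among those tested, against 6.19% of the other genes. Among 195 higher genes 14 (7.2%) lay next to another higher gene, against 3.62% of the others. Neighbours can share sequence, so some of these counts may not be independent. The longest run was 5 genes on 3R from 14560935 to 14567429. In it CG14850 (Jig) stood at 2384, 2094 and 1886 CPM in pre-NRC and 54.1, 128 and 102 CPM in post-NRC starvation (−4.49, SE 0.39, adjusted p = 0.00215). CG8087 had 2792, 2513 and 1617 CPM against 182, 278 and 194 CPM (−3.40, SE 0.54, adjusted p = 0.0291), and CG14852 had 4028, 4327 and 2944 CPM against 327, 434 and 290 CPM (−3.43, SE 0.35, adjusted p = 0.008). CG31313, which shares an exon with CG14852, had 158, 191 and 202 CPM against 24.9, 27.7 and 18.4 CPM (−2.95, SE 0.255, adjusted p = 0.00215). In feeding libraries all 4 stood below 10 CPM, and the table's Swiss-Prot column matches CG31313 to a cystatin and CG8087 to new-glue 2. CG14851, between them, had 3 counts in all in post-NRC starvation and 1.70 to 3.92 CPM in pre-NRC starvation.

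A second run held 4 P450 genes on 2R from 14875829 to 14884046, Cyp6a23, Cyp6a19, Cyp6a9 and Cyp6a20. Cyp6a19 and Cyp6a9 share an exon, so their counts may not be independent. Cyp6a9 stood at 148, 143 and 92.5 CPM in pre-NRC and 18.5, 36.8 and 22.5 CPM in post-NRC starvation (−2.30, SE 0.31, adjusted p = 0.019), and Cyp6a20 at 29.3, 17.9 and 12.1 CPM against 2.31, 4.49 and 2.57 CPM (−2.66, SE 0.43, adjusted p = 0.0291). Another run on 2R from 23749318 to 23752495 joined CG34105, CG12491 and CG11300. The values of CG34105 and CG12491 differed by little in every library (70.3 and 70.4 CPM in pre-NRC replicate 1, for example), so these 2 may be near-identical copies that shared reads. CG11300 beside them had 1166, 913 and 362 CPM against 76.4, 101 and 121 CPM (−3.03, SE 0.59, adjusted p = 0.0356). The last run, CG13170, CG43315 and CG43316, lay on 2R from 12240399 to 12243273.

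Fed glands gave a reference level for both starved groups. In 196 of the 207 genes higher in post-NRC starvation (94.7%) and in 338 of the 358 lower ones (94.4%) the mean in feeding was nearer to post-NRC than to pre-NRC starvation, against 75.3% and 74.5% of all genes that leaned the same way. Of the 207 higher genes, 114 (55.1%) had a higher mean in feeding than in either starved group, near the 56.9% over all genes that leaned that way, and 93 lay between them. Of the 358 lower genes, 275 (76.8%, against 59.3% over all genes) had a lower mean in feeding than in either starved group, 78 lay between them and 5 lay above both. In 84 of the lower genes the feeding mean was under 1 CPM, and in 0 of the higher ones. Genes low in feeding and in post-NRC starvation could pass the filter on low counts through their pre-NRC values. The same count over all genes tested was not made, so no conclusion is drawn from it. The feeding libraries enter the estimate of spread but not the difference between the starved groups.

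**Figure D5:**
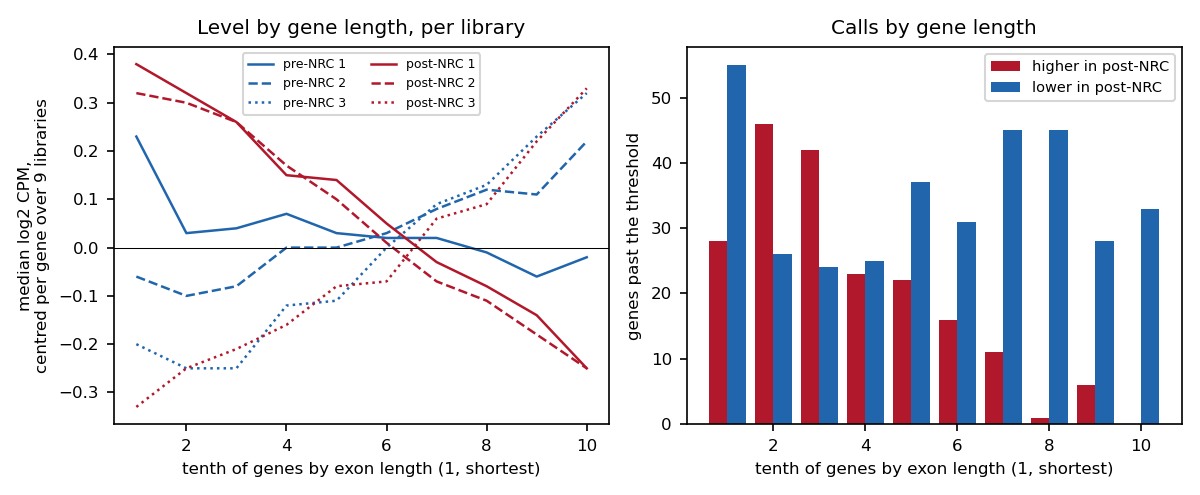
Left, median log2 CPM of genes in each of 10 classes of exon length, centred per gene over the 9 libraries, for the 6 starved libraries. Right, number of genes called higher (red) or lower (blue) in each class; replicate 3 of both groups runs from below 0 in short genes to above 0 in long genes, and the higher calls number 46 in class 2 and 0 in class 10, which holds the longest genes.

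Gene length was set beside the calls because the libraries differed in how their levels ran with it. Replicate 3 of both groups and, less steeply, pre-NRC replicate 2 ran upward with length, and post-NRC replicates 1 and 2 ran downward. The median exon length was 1225 bases in 195 higher genes and 2123 bases in 349 lower ones, against 2045.5 bases in all 10274 tested genes with a known length. The median log2 change of all genes ran from 0.21 in class 2 of 10 by length to −0.21 in class 10, which holds the longest genes. With each library corrected for its own trend on length, 367 genes (3.57%) were higher and 461 (4.49%) lower, and of the 544 called genes with a length 454 (83.5%) kept their call. The list medians shifted unequally: that of the mitochondrial ribosome went from 0.77 to 0.61 and that of the cytoplasmic ribosome from 0.23 to 0.06, while that of the lipases stayed at −2.38.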

How the data were processed

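The authors deposited 1 table with raw read counts and FPKM (fragments scaled to gene length and library size) for each of 9 libraries, as its headers show. HISAT2, StringTie, Bowtie and Cufflinks and the build BDGP6 are named in the submitters' processing notes, without roles or versions. No source used here gives the counting tool or its strand setting. The columns with no starvation term were taken as the feeding libraries.

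Counts of all 9 libraries were fitted with edgeR 4.0.16 (R 4.3.3; TMM factors, default filter on low counts, quasi-likelihood test, 1 coefficient per group, no block). SE is the log2 change divided by the square root of F, and CPM uses TMM-scaled totals. No label ties a library to a separate culture or set of animals beyond the word biological replicate, so p-values measure the spread between these pools. The members, the 57 gene lists and the alternatives were chosen with earlier results of these data known. Of the list members 1644 were matched in the table and 23 were not. Genes named were the 15 largest rises and 15 largest falls with separate groups, at least 50 counts on average in the higher group and a given symbol. To these came up to 4 called members of each list by p, or up to 2 with the highest level where fewer than 2 passed, and every member of the lists of ecdysone synthesis, gland regulators, corpora cardiaca and juvenile hormone. The 6 genes called in all fits, the genes in runs and CG6962 fall outside that rule and were chosen after their values were seen. Exon lengths and overlaps came from the reference annotation BDGP6.54, in which 13605 of 13827 FlyBase IDs were found. The length correction subtracted a lowess trend (span 0.3) of each library's level on exon length. It was chosen after seeing the data. Alternatives used DESeq2 1.42.0 and limma 3.58.1, the latter also on log2(FPKM + 1). The fit was tested on simulated data. Pairing by replicate number was checked by correlating deviations from the group means between the starved groups.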

Additional observations from a re-analysis of the deposited data

How the results depend on the processing

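Counts are given as genes higher and genes lower, against 207 and 358. They were 690 and 1196 with DESeq2, 362 and 759 with limma-trend on log2(FPKM + 1), and 648 and 939 at an adjusted p of 0.1. With the 6 starved libraries only they were 5 and 74, with feeding replicates 1 and 2 summed 6 and 45, with a term for replicate 3 1146 and 1036, and with replicates 1 and 2 of each group only 1671 and 1370. Leaving out 1 library gave 0 to 710 higher and 6 to 841 lower genes. With the length correction, chosen after seeing the data, they were 367 and 461, and among genes without exon overlap 143 and 228. Other size factors, filters on low counts, limma-voom and a log2 change of at least 1 moved neither count beyond 1.5 times, and no direction of a call was turned in any fit. The share of called genes with a feeding level nearer to post-NRC starvation was 100% of the higher and 97.3% of the lower genes with the 6 starved libraries only. The cause of these shifts was not tested.

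With the replicate number as a block, the replicate block gave 768 and 744 genes in 9 libraries, 1 and 52 in the 6 starved libraries, and 862 and 778 together with the length correction. Deviations of same-numbered libraries correlated at 0.1, 0.149 and 0.365, the first of these just under the limit of 0.1 before rounding, and pre-NRC replicate 1 correlated best with post-NRC replicate 2 (0.234), so the numbers were not taken as pairs. The search for promoter motifs was not run, since no promoter sequence was used here. Limits that bear on every count are the 3 libraries per group, a biological coefficient of variation of 50.6%, and replicate 3.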
